A study of Zea mays with 2 samples.

Results

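The chromatin loops and hierarchical TAD-like domains that lie in the pericentromeric regions of the maize genome are described here. A pericentromeric window was taken as the 15 Mb on either side of the centromere midpoint of each of chromosomes 1 to 10 in B73 AGPv4. A domain, or both anchors of a loop, had to lie wholly inside a window. By this rule 1057 of 17201 loops in replicate 1 and 1439 of 25917 loops in replicate 2 were pericentromeric, and so were 1980 of 17978 domains in replicate 1 and 2027 of 18739 domains in replicate 2. The windows add up to 300 Mb, or 14.2% of chromosomes 1 to 10. They held 6.27% and 5.61% of the loops of these chromosomes and 11.01% and 10.8% of their domains, in replicates 1 and 2. A further 28 and 35 loops and 40 and 42 domains crossed a window edge and were put in neither region.

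The libraries came from whole leaves of B73, a maize inbred line, grown in a greenhouse and collected at developmental stage v04, and each of replicates 1 and 2 came from 4 plants. No treatment or second genotype was included, so that the comparisons made are between regions of the genome. Hi-C crosslinks chromatin and ligates fragments that are neighbours in nuclear space, and sequencing then counts such contacts. The lists hold calls alone, and neither the total contacts of a library nor the contacts at positions with no call were measured here.

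Maize centromeres are the sites where the centromeric histone CENH3 replaces canonical histone H3 and where spindle fibres attach. They are built from a tandem satellite repeat and from centromeric retrotransposons, and the pericentromeric heterochromatin around them is rich in retrotransposons, heavily methylated, poor in genes and rarely recombines. In large plant genomes, TAD-like domains largely mirror the alternation of active and inactive chromatin, and many chromatin loops bring together gene-rich, accessible sites that may lie far apart.

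Loops were sparser in the windows than elsewhere on every chromosome. In replicate 1, loop density inside the windows ran from 2.37 loops per Mb on chromosome 4 through a median of 3.42 to 4.6 on chromosome 5, whereas the rest of the chromosomes ran from 7.70 through 8.72 to 9.52. In replicate 2 it ran from 2.8 on chromosome 4 through 4.8 to 6.7 on chromosome 5, against 11.8 through 13.3 to 14.4. The window with most loops thus stayed below the arms with fewest loops in either replicate. Over both replicates the density was 4.16 ± 1.08 loops per Mb inside (SD, n = 10 chromosomes) and 11.05 ± 0.665 outside, a ratio of 0.377. The difference of -6.89 loops per Mb was larger than the spread among chromosomes (two-sided exact sign-flip permutation test, adjusted p = 0.0031, lower inside on 10 of 10 chromosomes). The unadjusted p of 0.00195 is the smallest that 1024 sign patterns can give. This test, used for all 16 measures compared, covers the spread among chromosomes of these libraries, not among plants. Between the replicates, the mean density inside was 4.16 ± 0.9004 loops per Mb (SD, n = 2).

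The windows ranked alike in both replicates at either end. Chromosomes 5, 6 and 10 had the densest windows, with 4.6, 4.43 and 4.43 loops per Mb in replicate 1 and 6.7, 6.27 and 6.03 in replicate 2. Chromosomes 3 and 4 had the sparsest, with 2.67 and 2.37 in replicate 1 and 2.87 and 2.8 in replicate 2. In replicate 2 the sparsest and densest windows thus differed more than in replicate 1.

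Within the windows, loop density dropped towards the midpoint. In replicate 1 it was 1.6 ± 1.15 loops per Mb within 1 Mb of the midpoint (SD, n = 10 chromosomes), 3.68 ± 0.904 at 5 to 10 Mb and 4.62 ± 1.30 at 10 to 15 Mb. It then went on rising beyond the window edge, to 6.42 ± 1.25 at 20 to 30 Mb and 8.97 ± 0.591 at 50 to 80 Mb. In replicate 2 the same intervals held 1.9 ± 1.33, 5.2 ± 1.58, 6.03 ± 2.09, 9.59 ± 1.75 and 13.8 ± 0.758 loops per Mb. No step was seen at the edge of the 15-Mb window in replicate 1, where 15 to 20 Mb held 4.6 ± 0.760 loops per Mb. In replicate 2 this interval held 7.32 ± 1.60 loops per Mb, above the 6.03 ± 2.09 at 10 to 15 Mb. Over both replicates, the density was still lower inside when the window was compared with only the 15 Mb next to it on either side (-3.04 loops per Mb, exact sign-flip permutation test, adjusted p = 0.0156, lower on 10 of 10 chromosomes).

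**Figure D1:**
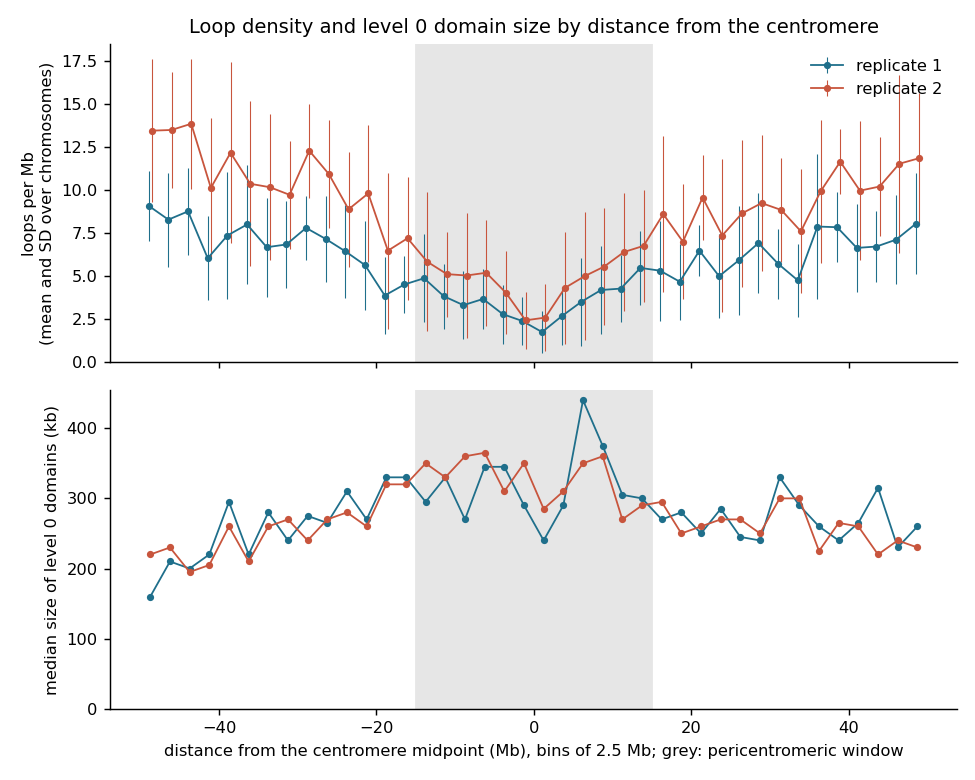
Loops per Mb (top, mean and SD over chromosomes) and median size of level 0 domains in kb (bottom) in bins of 2.5 Mb by signed distance from the centromere midpoint, for replicates 1 and 2, with the window of 15 Mb on either side in grey. Loop density was lowest at the midpoint in both replicates. Level 0 domains were mostly larger inside the window than far from it, but single bins differed. In replicate 1 the median was 240 kb in the bin at 1.25 Mb and 330 kb in the bin at 31.25 Mb.

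The shortage was seen among loops under 400 kb. Loops under 100 kb reached 0.76 per Mb inside and 3.42 per Mb outside in replicate 1, and 1.5 and 5.46 per Mb in replicate 2. Loops of 200 to 400 kb reached 0.987 and 1.84 per Mb in replicate 1, and 1.18 and 2.86 in replicate 2. Loops of 400 kb and over reached 0.827 inside and 0.596 outside in replicate 1, and 0.817 and 0.843 in replicate 2. The longer the class, the smaller was the gap between window and rest. Tested alone, in settings added after seeing the data, loops under 100 kb were sparser inside (-3.32 per Mb, exact sign-flip permutation test, adjusted p = 0.0031, 10 of 10 chromosomes), and so were loops of at least 100 kb (-3.57 per Mb, adjusted p = 0.0031 in the same test, 10 of 10). For loops of 400 kb and over, no difference was detected (0.822 per Mb inside and 0.717 outside, a difference of 0.105 ± 0.231 SD, exact sign-flip permutation test, adjusted p = 0.212, higher inside on 6 of 10 chromosomes). Inside the windows this class held 248 loops in replicate 1 and 245 in replicate 2.

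Pericentromeric loops were longer at the median. Length was taken from the start of one anchor to the start of the other. The median per chromosome was 160 to 275 kb inside, with a middle value of 196.25 kb, and 110 to 125 kb outside in replicate 1. In replicate 2 it was 130 to 225 kb inside, with a middle value of 167.5 kb, and 110 to 120 kb outside. The ranges did not overlap in either replicate, and chromosome 3 had the longest loops in both. The difference was +69.1 kb (187 ± 29.4 kb inside and 117.5 ± 4.41 kb outside, SD, n = 10 chromosomes; exact sign-flip permutation test, adjusted p = 0.0031, longer inside on 10 of 10). Against the adjacent 15 Mb alone it was 25.4 kb and missed the threshold (exact sign-flip permutation test, adjusted p = 0.0703). Loops of 500 kb or more made up 15.5% of the pericentromeric loops in replicate 1 (95% Wilson interval 13.5 to 17.8%) and 10.7% in replicate 2 (9.21 to 12.4%), against 3.64% (3.36 to 3.94%) and 3.32% (3.11 to 3.56%) elsewhere. Wilson intervals treat loops or domains as independent and cover counting error only.

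Anchor sizes differ between the lists and also between the regions, and this bears on all loop measures given here, from density to length and anchor sharing. Replicate 2 had anchors of 10 kb alone. In replicate 1, 17.9% of pericentromeric loops had 5-kb, 39.5% had 10-kb and 42.6% had 25-kb anchors, whereas elsewhere the shares were 35.0%, 40.9% and 24.1%. The windows thus held fewer of the finest calls and more of the coarsest. With 10-kb anchors alone in both replicates, loops were still sparser inside (-5.39 per Mb, exact sign-flip permutation test, adjusted p = 0.0039, 10 of 10 chromosomes).

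Loops were supported by fewer contacts in the windows, as was the local background. Contacts were compared for 10-kb anchors, since a larger anchor collects more. The median per chromosome was 16 to 21 contacts inside and 20 to 22 outside in replicate 1, which overlap, and 23 to 30 inside and 31 to 34 outside in replicate 2, which do not. The difference over both was -4.2 contacts (22.5 ± 1.88 and 26.7 ± 0.675, exact sign-flip permutation test, adjusted p = 0.0031, fewer inside on 10 of 10 chromosomes). It was -2.1 contacts in replicate 1 alone and -1.83 among loops of 100 to 300 kb (adjusted p = 0.025 and 0.0062 in this permutation test), and against the adjacent 15 Mb -1.55 missed the threshold (adjusted p = 0.0590). Contacts expected from the donut-shaped background around a loop were also lower, by 0.96 (5.09 ± 0.617 inside and 6.05 ± 0.192 outside, exact sign-flip permutation test, adjusted p = 0.0052, lower on 9 of 10). This call for the expected contacts was lost in replicate 1 alone (-0.393, adjusted p = 0.127 in the same permutation test), among loops of 100 to 300 kb (-0.173, adjusted p = 0.268) and against the adjacent 15 Mb (-0.479, adjusted p = 0.108). With all anchor sizes its direction turned (0.0459, adjusted p = 0.838 in this permutation test).

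For the ratio of observed to expected contacts, no difference was detected. It was 4.49 ± 0.249 inside and 4.60 ± 0.0960 outside, a difference of -0.109 ± 0.302 (SD), with 5 of 10 chromosomes higher inside (exact sign-flip permutation test, adjusted p = 0.287). This measure depended on which loops were taken. Among loops of 100 to 300 kb the ratio was lower inside by 0.236 (4.61 and 4.84, exact sign-flip permutation test, adjusted p = 0.0260), and with all anchor sizes it was lower by 0.514 (4.21 and 4.72, adjusted p = 0.0031 in the same test). In replicate 2, loops under 100 kb had a median of 34 contacts inside and 45 outside, whereas those of 400 kb and over had 17 and 16. In replicate 2 the gap in contacts was thus seen among the shorter loops.

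**Figure D2:**
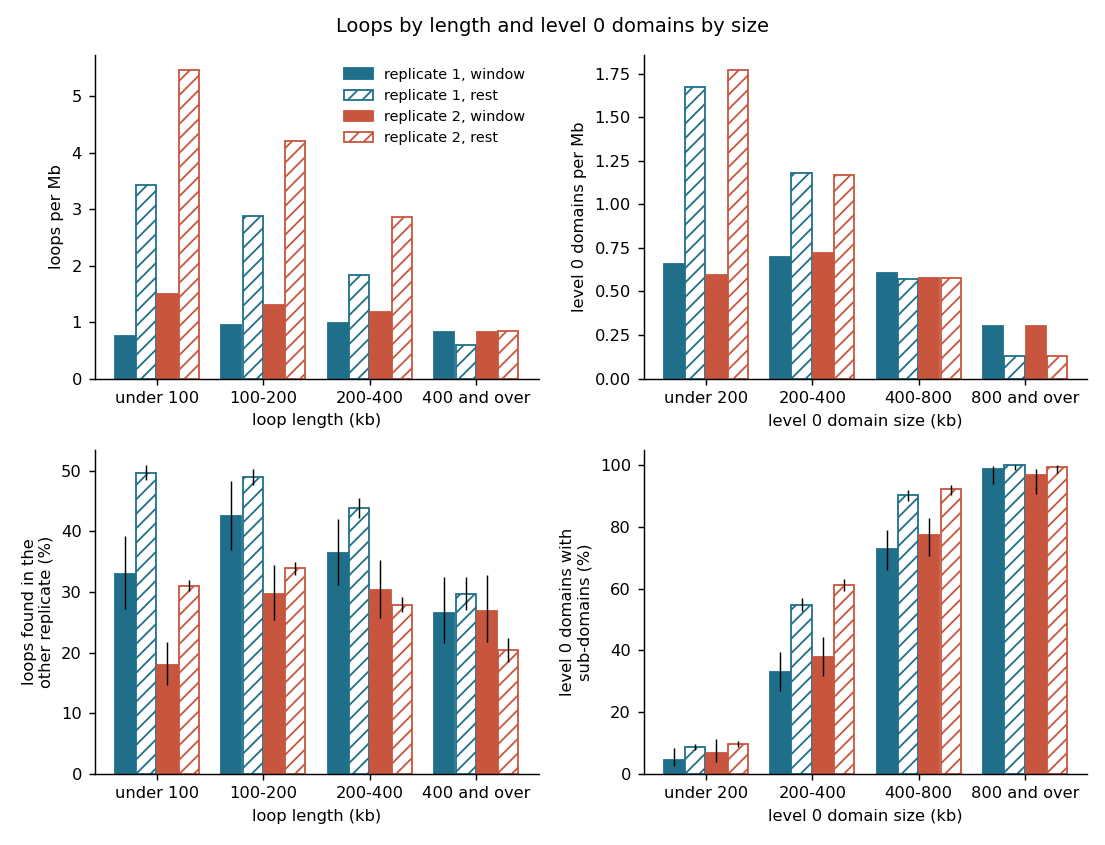
Loops by length (left) and level 0 domains by size (right), in the pericentromeric windows (filled bars) and in the rest of the chromosomes (hatched bars) of replicates 1 and 2. The upper panels give the number per Mb, and the lower panels the percent of loops found in the other replicate and the percent of level 0 domains that hold sub-domains, with 95% Wilson intervals. Loops under 100 kb reached 0.76 per Mb inside and 3.42 outside in replicate 1, and level 0 domains of 200 to 400 kb held sub-domains in 32.9% of cases inside and 54.8% outside.

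Level 0 domains, the outermost layer of the domain hierarchy, tiled the windows as they tiled the arms. They covered 98.2 to 100% of each window in replicate 1 and 97.9 to 99.8% in replicate 2, against 97.4 to 99.6% of the rest of each chromosome in both replicates. There were 679 of them inside in replicate 1 and 659 in replicate 2. Since they cover nearly all of the sequence, their density and their mean size are 2 views of one measurement. Pericentromeric level 0 domains were fewer and larger. Their density was 1.87 to 2.57 per Mb inside and 3.34 to 3.98 outside in replicate 1, and 1.83 to 2.57 and 3.34 to 3.88 in replicate 2, with no overlap (-1.36 per Mb over both, exact sign-flip permutation test, adjusted p = 0.0031, lower on 10 of 10 chromosomes).

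The median size of level 0 domains per chromosome was 275 kb on chromosome 10 to 410 kb on chromosome 3 in replicate 1, with a middle value of 310 kb, and 200 to 220 kb outside. In replicate 2 it was 280 kb on chromosome 10 to 370 kb on chromosome 1, also with a middle value of 310 kb, and 190 to 220 kb outside. Every window lay above every arm region in both replicates. The mean over chromosomes was 318 kb in each replicate, and the difference over both was +114 kb (318 ± 31.1 and 204 ± 8.34 kb, exact sign-flip permutation test, adjusted p = 0.0031, larger on 10 of 10). Against the adjacent 15 Mb alone, whose mean was 283 kb, the difference of 35 kb missed the threshold (exact sign-flip permutation test, adjusted p = 0.0682). The flanks of the windows thus also held large domains.

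Small level 0 domains were fewer and large ones more numerous. Level 0 domains under 200 kb reached 0.657 per Mb inside and 1.68 outside in replicate 1, and 0.593 and 1.77 in replicate 2. Those of 800 kb and over reached 0.303 per Mb inside in each replicate, against 0.131 and 0.127 outside. They were 13.4% (11.04 to 16.2%) and 13.8% (11.4 to 16.7%) of the level 0 domains inside, and 3.68% (3.25 to 4.17%) and 3.496% (3.08 to 3.97%) outside. In a setting added after seeing the data, level 0 domains of at least 400 kb alone were denser inside, by 0.188 ± 0.0642 per Mb (SD, n = 10 chromosomes; exact sign-flip permutation test, adjusted p = 0.0031, higher on 10 of 10). This opposes the direction over all sizes. For loops of 400 kb and over no such gain was detected.

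**Figure D3:**
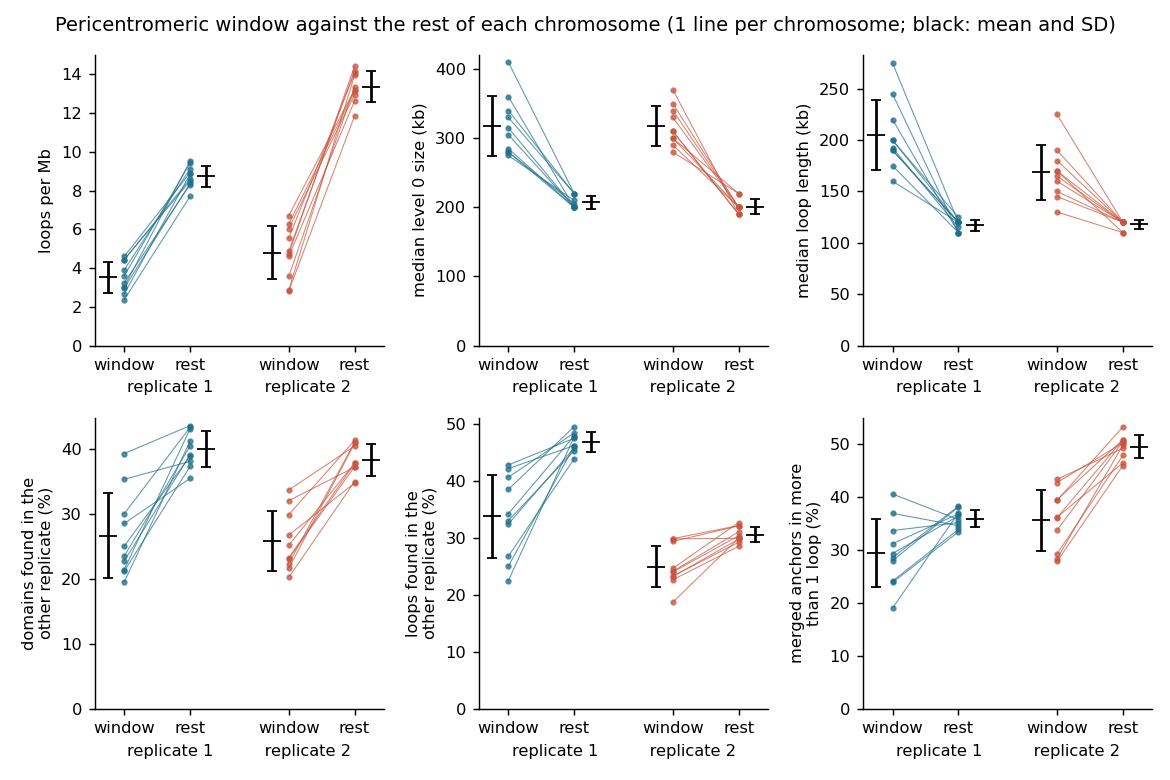
Values of the pericentromeric window and of the rest of the same chromosome for 6 measures in replicates 1 and 2, with 1 line per chromosome and, in black, the mean and SD over 10 chromosomes. For loop density, level 0 size and loop length, the windows and the rest did not overlap in either replicate.

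Sub-domains are the domains nested at level 1 and deeper. Taken over all sizes, nesting was somewhat more common in the windows. Sub-domains made up 61.1 to 71.5% of the domains of a window in replicate 1 and 62.9 to 71.6% in replicate 2, against 56.2 to 62.4% and 58.9 to 62.5% outside. The difference was +6.37 percentage points (66.6 and 60.2%, exact sign-flip permutation test, adjusted p = 0.0031, higher on 10 of 10 chromosomes). Level 0 domains with 2 or more nested layers were 26.0% inside and 18.5% outside (+7.49 points, exact sign-flip permutation test, adjusted p = 0.0052, 9 of 10). Level 0 domains with any sub-domain were 46.1% inside and 41.6% outside (+4.49 points, exact sign-flip permutation test, adjusted p = 0.0216, 8 of 10). In replicate 1 alone the last difference was 3.67 points, with an adjusted p of 0.0505 in this permutation test. All 3 calls ended against the adjacent 15 Mb, with differences of 3.06 (adjusted p = 0.0682), 5.42 (adjusted p = 0.0547) and -2.19 points (adjusted p = 0.489, permutation test as before), and within 5 Mb of the midpoint, with 3.53, 4.07 and -3.09 points (adjusted p = 0.1897, 0.1897 and 0.210 in the same permutation test).

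At equal domain size the direction turned. Larger domains hold more sub-domains everywhere, and the windows have more of the large ones. Of the level 0 domains of 200 to 400 kb, 32.9% (26.9 to 39.5%) held sub-domains inside and 54.8% (52.7 to 56.9%) outside in replicate 1, and 37.8% (31.6 to 44.4%) and 61.2% (59.1 to 63.3%) in replicate 2. Of those of 400 to 800 kb, 72.9% (66.0 to 78.9%) and 90.3% (88.4 to 92.0%) did in replicate 1, and 77.5% (70.7 to 83.0%) and 92.2% (90.4 to 93.7%) in replicate 2. The intervals of window and rest did not overlap in either size class. Over both replicates, the difference at 200 to 400 kb was -24.1 percentage points (exact sign-flip permutation test, adjusted p = 0.0048, higher inside on 1 of 10 chromosomes). At 400 to 800 kb, a setting added after seeing the data, it was -15.1 points (exact sign-flip permutation test, adjusted p = 0.0028, higher inside on 0 of 10). Nesting of 2 or more layers at 200 to 400 kb was also rarer inside, at 5.38% against 15.4% (exact sign-flip permutation test, adjusted p = 0.0028, lower on 10 of 10 chromosomes). From 800 kb upwards nearly all level 0 domains held sub-domains, with 98.9% inside and 100% outside in replicate 1 and 96.7% and 99.6% in replicate 2.

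The sub-domains themselves were larger too. The median level 1 domain was 220 kb inside in each replicate and 150 kb outside. The median level 2 domain was 190 kb in replicate 1 and 210 kb in replicate 2 inside, and 140 and 130 kb outside. A level 0 domain with any sub-domains held a median of 4 inside and 3 outside in both replicates. Undivided level 0 domains had a median of 200 kb inside in each replicate, and 140 and 130 kb outside.

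Pericentromeric domains were less often called alike in both replicates. A domain was counted as found when both of its boundaries lay within 10 kb of those of a domain of any level in the other replicate. Of the replicate 1 domains, 19.5 to 39.2% per window were found, with a median of 24.2%, and 35.4 to 43.5% outside. Of the replicate 2 domains, 20.2 to 33.6% were found, with a median of 24.2%, and 34.7 to 41.3% outside. The windows of chromosome 5, the highest in each replicate, overlapped the outside range only in replicate 1. The difference was -12.9 percentage points (26.2 and 39.1%, exact sign-flip permutation test, adjusted p = 0.0031, lower on 10 of 10 chromosomes). Both shares rest on one matching of 2 lists, so the replicates are not independent here.

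The gap was seen at each of the outer levels. Of level 0 domains, 30.04% (26.7 to 33.6%) of replicate 1 and 28.2% (24.9 to 31.8%) of replicate 2 were found inside, and 42.8% (41.6 to 44.0%) and 42.7% (41.5 to 43.8%) outside. At level 2 it was 21.6% (17.9 to 25.8%) and 24.8% (21.1 to 29.0%) inside, and 33.3% (31.6 to 35.1%) and 30.8% (29.1 to 32.5%) outside. Size mattered as well. Level 0 domains under 200 kb were found in 37.6% (31.1 to 44.5%) and 32.0% (25.6 to 39.2%) of cases inside against 52.9% (51.2 to 54.7%) and 51.3% (49.5 to 53.0%) outside. For level 0 domains of 200 to 400 kb the shares were 32.9% and 34.6% inside and 38.3% and 39.0% outside, and for those of 400 to 800 kb 25.4% and 23.1% inside and 28.5% and 29.4% outside, with overlapping intervals in both classes and replicates. Those of 800 kb and over were found in 16.5% (10.3 to 25.4%) and 15.4% (9.39 to 24.2%) inside and 15.6% (11.5 to 20.8%) and 16.1% (11.9 to 21.4%) outside, where the intervals overlapped too. The level 0 gap was thus clear of the counting intervals in the smallest class alone. At 200 to 400 kb, over domains of all levels and in a setting added after seeing the data, the difference was -7.22 points (exact sign-flip permutation test, adjusted p = 0.0216, higher inside on 3 of 10 chromosomes).

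Loops behaved likewise. Found meant here that both anchors of a loop overlapped, by at least 1 bp, the anchors of a single loop in the other list, and 370 loops of each replicate were found inside the windows. They were 35.0% of the pericentromeric loops of replicate 1 (32.2 to 37.9%) and 25.7% of those of replicate 2 (23.5 to 28.0%), against 46.8% (46.1 to 47.6%) and 30.6% (30.03 to 31.2%) elsewhere. Averaged over chromosomes the difference was -9.31 points (29.4 and 38.7%, exact sign-flip permutation test, adjusted p = 0.0031, lower on 10 of 10), with -13.0 points in replicate 1 alone and -5.60 in replicate 2 alone. Chromosome 7 had the lowest shares, 22.5% in replicate 1 and 18.7% in replicate 2. Among loops of 100 to 300 kb the difference was -6.16 points (exact sign-flip permutation test, adjusted p = 0.0288). Loops under 100 kb were found in 32.9% (27.1 to 39.2%) inside and 49.7% (48.4 to 50.9%) outside in replicate 1. In replicate 2 these shares were 18.0% (14.7 to 21.8%) and 31.1% (30.2 to 32.0%). At 100 to 200 kb they were 42.5% and 48.9% in replicate 1 and 29.7% and 33.9% in replicate 2, with overlapping intervals. The gap was thus clear of the counting intervals in both replicates only under 100 kb. Longer classes differed between the replicates. Loops of 200 to 400 kb were found in 36.5% (31.2 to 42.1%) of cases inside and 43.9% (42.2 to 45.6%) outside in replicate 1. In replicate 2 it was 30.3% (25.8 to 35.3%) inside and 27.9% (26.7 to 29.2%) outside, so that the gap was not seen there. Loops of 400 kb and over were found in 26.6% (21.5 to 32.4%) of cases inside and 29.6% (27.0 to 32.4%) outside in replicate 1, and in 26.9% (21.8 to 32.8%) and 20.4% (18.4 to 22.5%) in replicate 2. For these long loops the intervals of window and rest overlapped in both replicates. Called loops had fewer contacts in the windows, as given above, and the part of contact depth in these shares was not tested.

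Anchors were shared by fewer loops. With overlapping anchors merged, 19.0 to 40.6% of the anchors of a window took part in more than 1 loop in replicate 1, and 33.4 to 38.3% outside. In replicate 2 it was 27.9 to 43.4% inside and 46.0 to 53.3% outside, with no overlap. The difference was -10.2 percentage points (32.6 and 42.8%, exact sign-flip permutation test, adjusted p = 0.0031, lower on 10 of 10 chromosomes). It was -6.43 points in replicate 1 alone, where 2 of 10 chromosomes were higher inside, and -13.9 in replicate 2 alone (adjusted p = 0.0284 and 0.0026 in this permutation test). Anchors with 4 or more loops were 5.28% (4.35 to 6.40%) inside and 10.2% (9.83 to 10.6%) outside in replicate 2. In replicate 1 they were 3.76% (2.90 to 4.86%) and 4.32% (4.05 to 4.61%), with overlapping intervals. The merged anchor inside a window with most loops was chr5:90050001-90080000 in replicate 1, with 9 loops, close to the outer edge of its window. In replicate 2 it was chr2:106290001-106300000, with 7 loops. All loops at an anchor were counted in these anchor measures, also those that leave the window. Sparser loops also leave fewer anchors to coincide, and the part of loop density in this difference was not tested.

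The place of loops within domains was compared next. A loop was held by a domain when each anchor was contained in it or came within 2 kb of one of its boundaries. Of the pericentromeric loops, 74.7% (72.0 to 77.3%) in replicate 1 and 77.7% (75.5 to 79.8%) in replicate 2 were held by 1 domain. No difference from the rest was detected over both replicates (-2.84 ± 5.36 percentage points, SD, exact sign-flip permutation test, adjusted p = 0.15). In replicate 1 alone it was -5.23 points with an adjusted p of 0.0469 in this permutation test, and in replicate 2 it was -0.455. Among held loops, 48.5 ± 8.09% inside and 43.3 ± 1.67% outside had no anchor at a boundary of the smallest domain holding them (exact sign-flip permutation test, adjusted p = 0.0737, higher on 7 of 10 chromosomes). The SD was larger among windows than among arms. Windows held far fewer loops, and the part of counting error in this spread was not tested. Chromosome 3 stood highest inside at 67.3% and chromosome 5 lowest at 36.9%. This measure passed the threshold in some settings, namely within 10 Mb of the midpoint (+7.57 points, exact sign-flip permutation test, adjusted p = 0.0052), against the adjacent 15 Mb (+8.15, adjusted p = 0.0357), with 10-kb anchors alone (+7.28, adjusted p = 0.0290) and with anchors inside the domain to the base (+4.49, adjusted p = 0.0223). Within 5 Mb it did not (+9.12, adjusted p = 0.122 in this permutation test).

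Long stretches of the windows lay under no loop. Between the outer ends of loops lay 53.9 to 79.2% of the bases of a window in replicate 1 and 52.0 to 87.6% in replicate 2, against 74.6 to 82.8% and 80.6 to 89.0% outside. The ranges overlapped in both replicates, and the difference was -15.5 percentage points (66.8 and 82.4%, exact sign-flip permutation test, adjusted p = 0.0031, lower on 10 of 10 chromosomes). This measure is not separate from loop density, since fewer loops cover fewer bases at a given length. The part of density in it was not tested. The longest stretch with no loop above it, per window, was 1225 to 3525 kb in replicate 1 and 820 to 4210 kb in replicate 2.

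On chromosome 8 such a stretch lay across the midpoint in both replicates. It spanned chr8:49900001-52870000 in replicate 1 and chr8:49710001-52700000 in replicate 2, or 2970 and 2990 kb. On chromosome 1, the longest loop-free stretch of any window in replicate 1 was chr1:131300001-134825000, and that of replicate 2 on this chromosome, chr1:132350001-135090000, overlapped it. The stretch of replicate 1 contained the largest level 0 domain of any window, chr1:131530001-134650000, of 3120 kb with 15 sub-domains down to level 4. In replicate 2 the same span was overlapped by 6 level 0 domains, the closest of which was chr1:132500001-134100000. On chromosome 7, loop-free stretches at chr7:65700001-67850000 in replicate 1 and chr7:63550001-67760000 in replicate 2 overlapped as well. There the level 0 domain was nearly the same in both replicates, with chr7:65980001-68150000 in replicate 1 and chr7:65940001-68160000 in replicate 2 sharing 97.7% of their union. Their left boundaries lay more than 10 kb apart, so that the domain of replicate 2 was not counted as found.

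**Figure D4:**
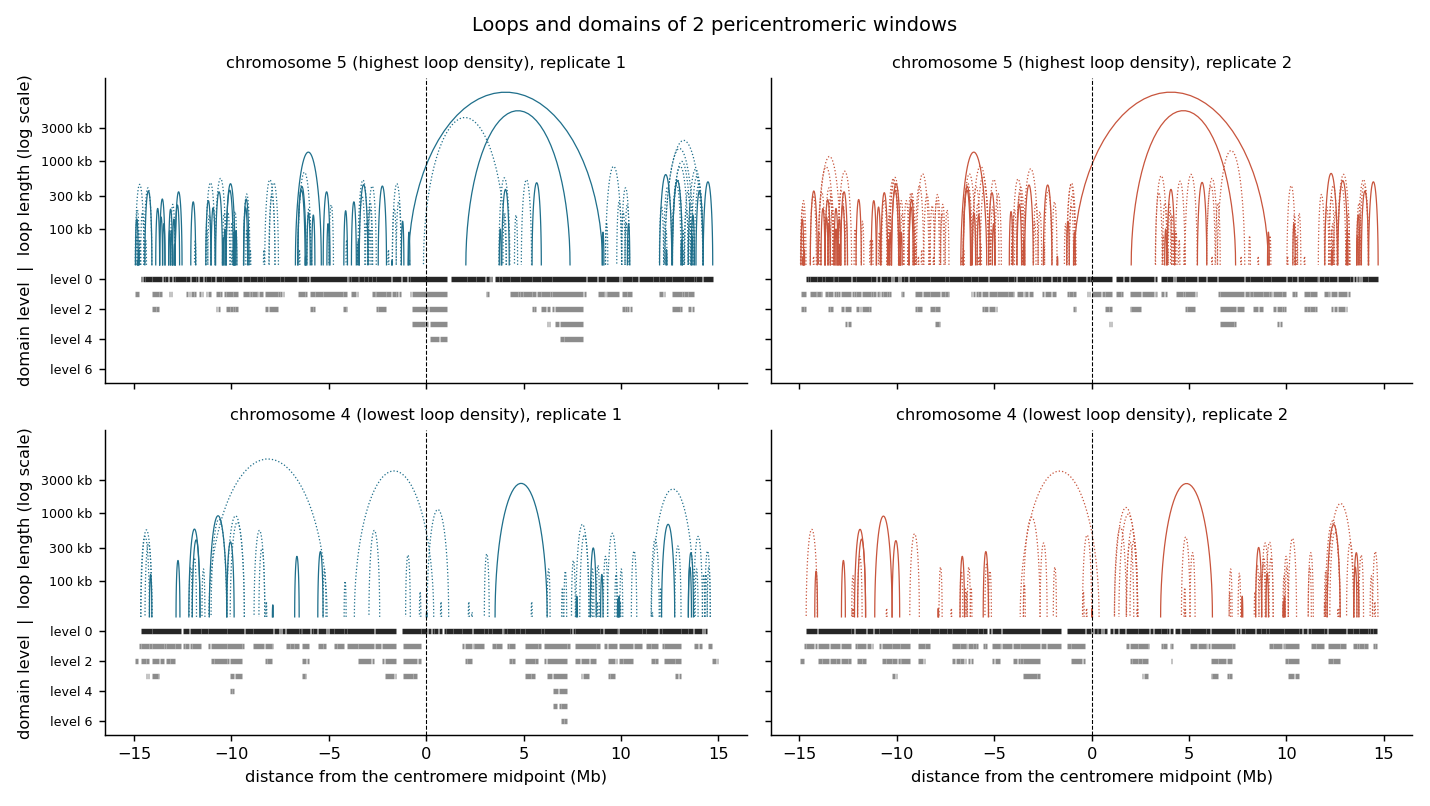
Loops (arcs, height by loop length on a log scale) and domains (bars, level 0 in black and sub-domains in grey) of the pericentromeric windows with the highest and the lowest loop density over both replicates, chromosomes 5 and 4, by distance from the centromere midpoint in Mb (dashed line). Solid arcs are loops found in the other replicate and dotted arcs are those not found, and the loops of 9975 and 9990 kb of chromosome 5 span the midpoint as solid arcs in both replicates.

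Midpoints were given to the nearest Mb, and loops across other points of the windows were not counted for comparison. The centromere midpoint was spanned by 6 loops in replicate 1 and 9 in replicate 2, and chromosomes 1, 7, 8 and 9 had none in either. The longest pericentromeric loop of each replicate was among them and was the same loop. It joined chr5:104075001-104100000 and chr5:114050001-114075000 in replicate 1, over 9975 kb with 16 contacts and 0.339 expected, and chr5:104080001-104090000 and chr5:114070001-114080000 in replicate 2, over 9990 kb with 20 contacts and 0.129 expected. Inside it lay another loop found in both, from chr5:107025001-107050000 to chr5:112375001-112400000 in replicate 1, with 46 contacts, and from chr5:107030001-107040000 to chr5:112390001-112400000 in replicate 2, with 29 contacts. These lie in the window with most loops.

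Chromosome 2 also had a long loop across its midpoint in both replicates. It joined chr2:94425001-94450000 and chr2:98150001-98175000 with 74 contacts in replicate 1, and chr2:94420001-94430000 and chr2:98150001-98160000 with 73 contacts in replicate 2. On chromosome 4, where loops were sparsest, chr4:105300001-105325000 was joined to chr4:109375001-109400000 in replicate 1 with 37 contacts. In replicate 2, chr4:105330001-105340000 was joined to chr4:109380001-109390000 with 33 contacts. The left anchors of this pair are 5 kb apart, so that by the overlap rule neither loop was counted as found. On chromosome 6, the loop from chr6:51700001-51710000 to chr6:52270001-52280000, of 570 kb, had identical anchors in both replicates, with 13 and 25 contacts.

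The 2 highest contact counts of each replicate lay at the same 2 places of the windows. At the midpoint of chromosome 1, a loop from chr1:137000001-137025000 to chr1:137100001-137125000 had 340 contacts and 11.3 expected in replicate 1, and one from chr1:137020001-137030000 to chr1:137110001-137120000 had 270 contacts and 2.00 expected in replicate 2. On chromosome 9, chr9:57390001-57400000 was joined to chr9:57430001-57440000 with 738 contacts and 28.1 expected in replicate 2. In replicate 1, chr9:57375001-57400000, which contains the same anchor, was joined to chr9:57625001-57650000 with 242 contacts and 0.473 expected, and neither was found in the other replicate. Counts at these loops stand far above the medians of 24 contacts in replicate 1 and 27 in replicate 2 over all pericentromeric loops. Both loops of replicate 1 have 25-kb anchors, for which the median inside the windows was 37.5 contacts. An expected value under 1 makes the ratio of observed to expected contacts large, and the largest ratios among loops with at least 20 contacts were 512 in replicate 1, at this locus of chromosome 9, and 332 in replicate 2, at the inner loop of chromosome 5.

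The level 0 domain at the midpoint itself was compared between the replicates. It had the same boundaries in both replicates on chromosome 2 only, at chr2:95880001-96100000, 220 kb with no sub-domain. On chromosome 5 it was chr5:104160001-106060000 in replicate 1, of 1900 kb with 10 sub-domains down to level 4, and chr5:104920001-105030000 in replicate 2, of 110 kb with none. On chromosome 10 it was chr10:51110001-53200000, of 2090 kb with 15 sub-domains, and chr10:51130001-52290000, of 1160 kb with 11. On the other chromosomes it measured 50 to 1550 kb in replicate 1 and 80 to 2010 kb in replicate 2, and none was found in the other replicate within 10 kb at both boundaries. The smallest were on chromosome 1, where chr1:137000001-137050000 and chr1:137000001-137080000 shared their left boundary. This boundary lies at the rounded midpoint itself, so the choice of domain there depends on the rounding. The adjoining level 0 domain of replicate 1, which ended at this boundary, was found in replicate 2. Domains chr3:86000001-86070000 of replicate 1 and chr4:109000001-109090000 of replicate 2 also began at the rounded midpoint. Of all level 0 domains of the windows, 30.04% in replicate 1 and 28.2% in replicate 2 were found in the other. Of those of 800 kb and over it was 16.5% and 15.4%. With 1 domain per chromosome, no departure of the midpoints from these shares can be read.

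The deepest domains were of level 6 in replicate 1 and of level 5 in replicate 2. The level 6 domains were chr4:115910001-116070000 and chr4:116070001-116240000, which share a boundary. The closest domain of replicate 2 to the first of them was chr4:115920001-116060000, at level 3, and it was found there within 10 kb, whereas the second was not. The level 5 domains of replicate 2 were chr1:136140001-136340000 and chr1:136340001-136500000, and chr10:57710001-57870000 and chr10:57870001-58030000, again in adjoining pairs, and none of these 4 was found in replicate 1. The largest level 0 domain of replicate 2, chr2:101530001-104130000 of 2600 kb with 17 sub-domains, overlapped the second largest of replicate 1, chr2:101780001-103990000 of 2210 kb with 12, by 85% of their union. Their boundaries differed by more than 100 kb, and by the 10-kb rule neither was found in the other replicate.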

How the data were processed

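Hi-C reads of B73 leaf, replicates 1 and 2, were filtered and mapped to AGPv4 with Juicer by the authors, who called domains with HiTAD from runHiC matrices at default parameters and loops with HICCUPS of Juicer Tools 1.9.9 (replicate 1) or 1.14.08 (replicate 2). Replicates were not pooled. The deposited loop lists give whole-number counts of contacts, not normalized, and a background signal, the contacts the authors' software expected from 4 local backgrounds. They also give a false discovery rate (q-value) for each, as deposited. No total depth is in the lists, so precision is given by the number of calls.

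Centromere midpoints were given to the nearest Mb. Chromosome lengths were the largest coordinate in the files. For each chromosome, the mean of replicates 1 and 2 inside the window was compared with the rest (two-sided exact sign-flip permutation test, Benjamini-Hochberg adjustment over 16 measures, threshold 0.05), in Python 3.11.15 (pandas 2.3.3, numpy 2.4.6, scipy 1.17.1), and plots were drawn with matplotlib 3.10.9. The script was checked on made-up lists with known answers. Other windows, comparison regions, size classes, anchor sizes and matching rules were tried. Members, measures, settings and named regions (those at the midpoint, the extremes of size, depth, contacts and ratio) were chosen with earlier results of these data known. Gene and sequence annotation of the windows was not used here.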

Additional observations from a re-analysis of the deposited data

How the results depend on the processing

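Of 180 alternatives over the 16 measures, 9 of them added after seeing the data, 150 kept direction and side of the threshold. Loops and domains found in the other replicate, shared anchors and bases under loops kept theirs in every alternative run, and leaving out any 1 chromosome ended no call. No alternative matched loop density between window and rest. All p-values are adjusted, from the exact sign-flip permutation test. With each replicate alone, the difference in level 0 domains with sub-domains was 3.67 to 5.31 points, in expected contacts -1.53 to -0.393, and in loops held by 1 domain -5.23 to -0.455 points. The calls on the first pair ended in replicate 1 alone, where that on held loops was gained. With a 5-Mb window, the nesting calls ended and held loops passed: sub-domain-holding was -3.09 points, 2 or more nested layers 4.07, sub-domain share 3.53, observed over expected 0.148 and held loops -5.93. With a 10-Mb window, sub-domain-holding was 2.93 (call ended) and embedded held loops 7.57 points. Against the adjacent 15 Mb every call named here ended except embedded loops, which passed: size differed by 35 kb, sub-domain-holding by -2.19, nested layers by 5.42, sub-domain share by 3.06 and embedded loops by 8.15 points, loop length by 25.4 kb, contacts by -1.55 and expected contacts by -0.479. With 10-kb anchors alone embedded loops differed by 7.28 points, and by 4.49 with anchors inside to the base. With all anchor sizes expected contacts differed by 0.0459 and the ratio by -0.514, and for loops of 100 to 300 kb by -0.173 and -0.236. With domains of at least 100 kb, sub-domain-holding differed by 2.47 points. At level 0 sizes of 200 to 400 kb it was -24.1 and nested layers -10.0, and at 400 to 800 kb -15.1. For loops of at least 400 kb density differed by 0.105, and for level 0 domains of at least 400 kb by 0.188 per Mb. The cause of these changes was not tested, other than that size classes compare fewer domains or loops. Chromosomes were paired in every test, and replicate numbers could pair no samples, since both libraries belong to 1 group.

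With 2 libraries of 1 condition, the spread between replicates (n = 2) does not measure spread among plants. The loop lists of the replicates also differ in Juicer Tools version and in anchor sizes, and these cannot be told apart from plants. Uncalled positions were not measured, and long loops and deep levels rest on few calls.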
